A study of Mytilus galloprovincialis with 16 samples.

Results

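The clones described here were selected on their ratio at stage 3, the ripe stage of the gonad, at which their signal was higher in the digestive gland of females than of males. They number 115 of the 1920 cDNA clones on the array. For each clone the deposited log2 ratios were turned to male over female and averaged over its 2 spots and the 4 arrays of a stage, and a clone was kept when its stage 3 mean was -0.5 or lower and its stage 1 mean was under 0.7. A negative ratio means a higher signal in the female throughout. The stage 3 condition alone was met by 116 clones, and the stage 1 condition removed only Myt01-006F07, with 0.95 at stage 1 and -0.98 at stage 3.

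The animals were single wild mussels, Mytilus galloprovincialis, from a Tunisian lagoon, with sex and gonad stage read from mantle sections. On each of 16 arrays the digestive gland RNA of 1 male competed with that of 1 female of the same stage, with 4 arrays for each of stage 1 (early), stage 2 (developing), stage 3 (ripe) and stage 4 (spawning). No group was treated and no age or genotype is given. Every stage was collected in a month of its own, so that gonad stage and month cannot be told apart, and each ratio compares the 2 animals of its slide.

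The digestive gland of bivalves takes up and breaks down food particles, stores reserves and supplies the gonad while gametes are built. Gonad tissue of mussels lies mainly in the mantle and can reach into the surface of the digestive gland. In a competitive hybridization the cDNA of each sex carries its own fluorescent dye and both bind to the same spot, so that a ratio is read within a slide and the brightness of each channel gives the level in each sex. The scanner files name the spots by clone only, and the tables used here pair no clone with a gene, so that the clones are given by their identifiers, no gene role is stated, and the tissue could not be checked against marker genes. In such samples fewer cells of a type and less RNA per cell cannot be told apart.

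Several arrays stood apart over these clones. Over all 1920 clones the ratios of stage 3 replicates 1, 2 and 3 correlated with each other at r = 0.912 (1 and 3), 0.690 (1 and 2) and 0.651 (2 and 3), whereas stage 3 replicate 4 correlated with them at -0.00, 0.12 and -0.02. Stage 4 replicates 2 and 4 correlated with stage 3 replicates 1, 2 and 3 at 0.739 to 0.886, and with stage 4 replicates 1 and 3 at -0.11 to -0.15. These are correlations over clones that share slide, dye and print run. With the 115 clones left out, the values between stage 3 replicates 1 to 3 and stage 4 replicates 2 and 4 were 0.677 to 0.825. Those between stage 4 replicates 2 and 4 and stage 4 replicates 1 and 3 were then -0.02 to 0.02, so that the negative values came with these clones.

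Stage 4 replicates 2 and 4 were also too alike for separate samples. Their difference had 0.503 of the variance that duplicate spots on the slides predict, so that it was below sampling noise, whereas the other 23 pairs of arrays of 1 stage had 1.67 to 12.7 of it. They were therefore averaged and counted as 1 sample, which left 15 replicates and n = 3 at stage 4. Whether stage 4 replicates 2 and 4 and stage 3 replicate 4 carry the right stage label could not be checked here. Every stage 4 value that includes the averaged replicate is subject to this doubt, as is the independence of stage 4 from the arrays that chose the clones. On both of them the female carried Cy5, and on stage 4 replicates 1 and 3 the female carried Cy3, so that at stage 4 the averaged replicate and the dye orientation cannot be told apart. At stage 3 the female carried Cy3 on replicates 1 and 3 and Cy5 on replicates 2 and 4. Between 28.8% and 56.7% of clone spots per array were above local background, and the correlation of duplicate spots over all clones was lowest, at 0.436, on stage 3 replicate 4 and highest, at 0.930, on stage 3 replicate 1.

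At stage 3 the clones were higher in the female on 3 of the 4 arrays. The median log2 ratio over the 115 clones, from the scanner intensities, was -1.04 on replicate 1, -1.17 on replicate 2, -0.90 on replicate 3 and 0.01 on replicate 4. Female signal exceeded male signal for 114, 114 and 115 clones on the first 3 arrays and for 51 on replicate 4. Replicates 1 to 3 were thus low with either dye on the female, and replicate 4 lay at the level of all clones (0.01). These values chose the clones and are given as a description, with no test.

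**Figure D1:**
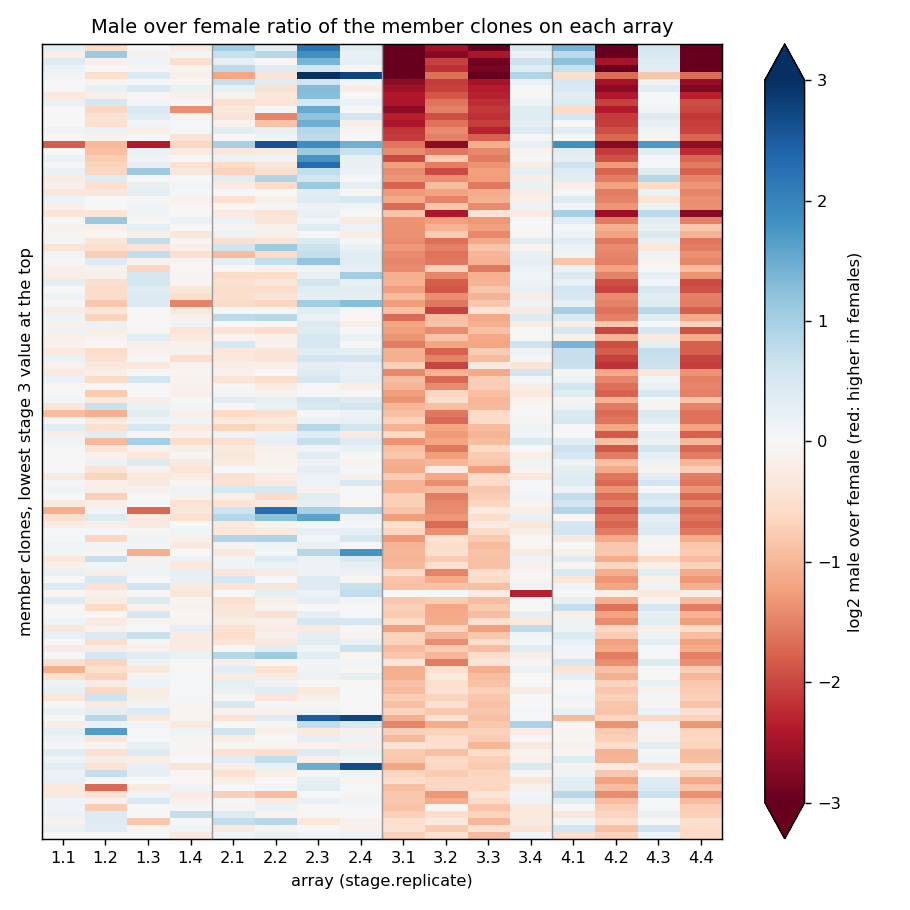
Each line is 1 of the 115 clones and each column 1 of the 16 arrays (stage.replicate). The colour gives the log2 male over female ratio, with colours ending at the values marked on the scale. Stage 3 replicates 1 to 3 and stage 4 replicates 2 and 4 are red for nearly all clones, while stage 3 replicate 4 and stage 4 replicates 1 and 3 are mostly pale or blue.

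The 115 clones had a median stage 3 ratio of -0.74 on scanner values, with a range from -2.43 to -0.51, and all 115 also met the stage 3 limit on these values. Another 9 clones outside the list would have met both limits on them. The median stage 3 ratio corresponded to a 1.67-fold higher signal in females, and 21 clones were over 2-fold. Without replicate 4 the median ratio over the clones was -1.001.

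The spread between arrays was wide. The SD between the 4 stage 3 arrays had a median of 0.60 over these clones, against 0.20 over all clones. Replicate 4 gave the highest ratio of the 4 arrays for 111 clones. Only 50 of the 115 clones were below 0 on all 4 arrays, and 11.7% of all clones were.

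A single clone ran the other way. For Myt01-008F05, named after its values were seen, the stage 3 ratios were 0.01, 0.04 and -0.24 on replicates 1, 2 and 3 and -2.32 on replicate 4. Its female signal was 9.30 on replicate 4, against 5.95 to 6.42 on the other 3 arrays, on the log2 scale of normalised signal. This clone thus entered the list through replicate 4 alone, the array with the lowest duplicate-spot correlation, and it was the dimmest of the 115.

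The separate channels showed on which side the stage 3 ratios arose. The median log2 signal over the clones in females was 8.37, 8.57, 8.29 and 7.74 on stage 3 replicates 1 to 4, against 7.12 to 7.39 on the stage 2 arrays and 7.52 to 7.61 on the stage 1 arrays. In males it was 7.16, 7.22, 7.28 and 7.85 at stage 3, close to the 7.22 to 7.85 of stage 2, with replicates 1 to 3 below and replicate 4 above the 7.40 to 7.63 of stage 1. Female signal was thus high on stage 3 replicates 1 to 3. On replicate 4 the female median was lower than on these, yet still above every stage 1 and stage 2 array. The male median there was above all stage 1 arrays and level with the highest of stage 2.

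Per clone, the stage 3 mean in females lay above the stage 2 mean for 113 of the 115 clones, with a median difference of 0.85. In males the same difference had a median of -0.0040, and 59 clones lay lower at stage 3. The direction at stage 2 follows the dye labels alone. With the stage 2 sign turned, 111 clones were higher in stage 3 females, the median differences became 0.76 in females and 0.08 in males, and 42 clones were lower in stage 3 males. Against stage 1 the median difference was 0.42 in females and -0.14 in males. The stage 3 female mean was the highest of the 4 stages for 79 clones, and the stage 3 male mean the lowest of the 4 for 31. Stage 3 values were used in the choice of the clones, so that these differences carry no test.

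**Figure D2:**
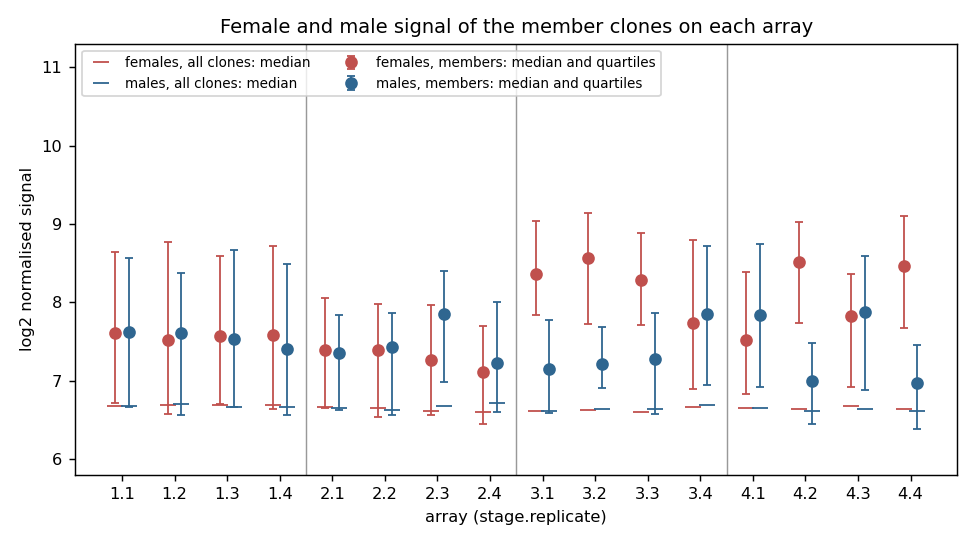
Median log2 normalised signal of the 115 clones on each array (stage.replicate) in females (red) and males (blue), with bars from the lower to the upper quartile. Short dashes give the median of all clones in the same channel, which lies between 6.60 and 6.71 on every array. Female medians of 8.29 to 8.57 stand clear of male medians of 6.97 to 7.28 on stage 3 replicates 1 to 3 and stage 4 replicates 2 and 4 only.

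The clone with the lowest stage 3 value was Myt01-003D11. Its log2 ratios at stage 3 were -4.34, -2.49, -3.35 and 0.46 on replicates 1 to 4, a mean of -2.43 ± 2.07 (SD, n = 4). Its female signal was 10.79, 9.93, 9.80 and 7.26 on these arrays and its male signal 6.45, 7.43, 6.45 and 7.72. In this clone females and males were far apart on 3 arrays and close on replicate 4, where the female signal was low. At stage 1 its ratios ran from -0.54 to 0.26 and at stage 2 from 0.27 to 2.20, so that at stage 2 all 4 arrays were higher in males, although the female channel was above background on none of them. On stage 4 replicates 1 and 3 it was also higher in males, at 1.39 and 0.52, and on replicates 2 and 4 higher in females, at -4.04 and -3.99.

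Myt01-001G04 came next. At stage 3 its ratios were -3.82, -2.73, -2.43 and 0.19, with a mean of -2.20 ± 1.70 (SD, n = 4). At stage 2 they were 0.68, 0.83, 1.83 and 0.22, and at stage 4 they were 0.78, -3.53, 0.45 and -3.61 on replicates 1 to 4. The signs were those of Myt01-003D11 on all arrays of stages 2, 3 and 4, and both clones come from the first 3 plates of the collection.

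The lowest stage 3 values among clones with all 4 arrays below 0 belonged to Myt01-003C08 and Myt01-003D02. In Myt01-003C08 the ratios were -2.40, -1.86, -2.30 and -0.01, and the male signal was above local background on none of the 4 arrays. The mean difference over the 4 arrays is thus given as a bound, at least 2.86-fold, although replicate 4 showed none. In Myt01-003D02 the ratios were -1.43, -1.59, -1.43 and -0.10, and the female signal was high on every array, from 8.37 to 9.30. On replicate 4 its male signal was 9.02, against 6.94 to 7.86 on replicates 1 to 3. The same array thus lacked the difference in Myt01-003C08 through a low female signal (6.70) and in Myt01-003D02 through a high male signal.

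**Figure D3:**
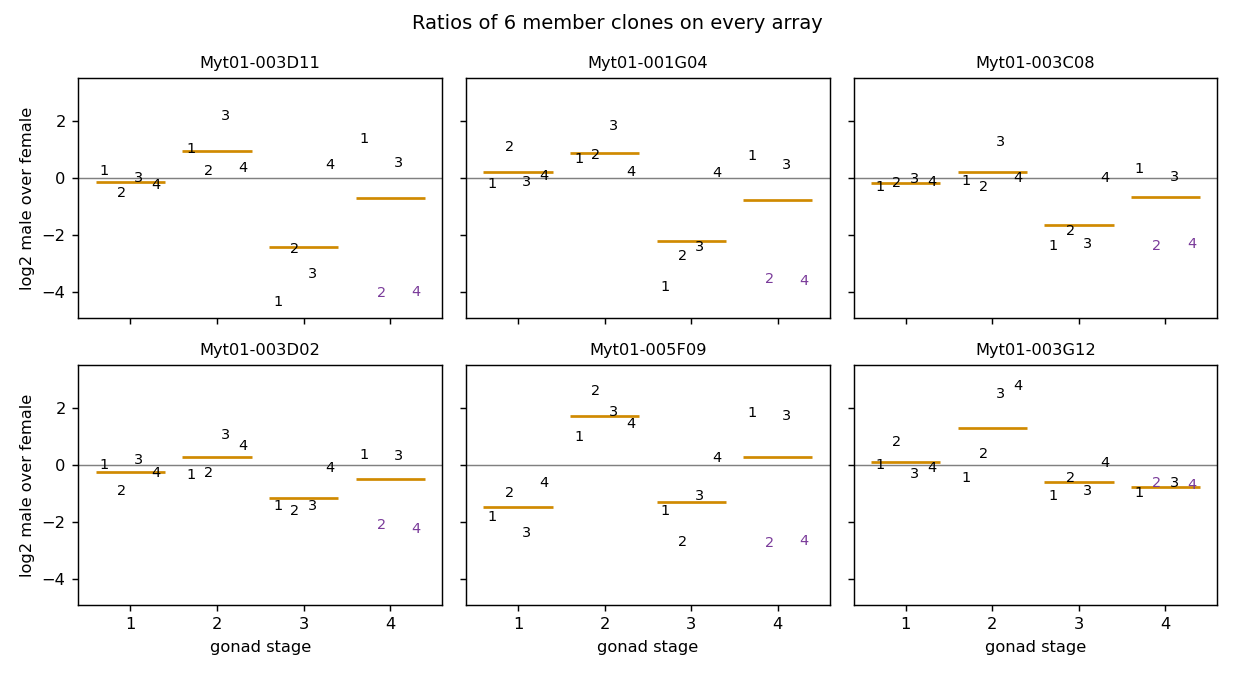
Log2 male over female ratio of 6 clones at each gonad stage. Digits are the replicate numbers of single arrays, purple digits are the stage 4 arrays averaged into 1 replicate, and orange lines are the stage means over replicates. For Myt01-003D11 the stage 3 digits 1, 2 and 3 lie between -4.34 and -2.49 and digit 4 at 0.46.

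For 19 of the 115 clones the male channel was above local background on no stage 3 array, and for these only a bound can be given. A bound sets the mean female signal against the higher of the male signal and the lowest signal above background on each array, and the 19 bounds ran from 1.19-fold to 2.86-fold with a median of 1.44-fold. The female channel was above background on at least 1 stage 3 array for every clone, and on all 4 for 62 clones. On stage 3 replicate 4 the females of 63 clones were above background, against 98 to 114 on the other 3 arrays.

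The stage 3 limit cut through a continuous range. Just inside it lay Myt01-002A01, at -0.502, and Myt01-013E05, at -0.504, and just outside Myt01-007F04 and Myt01-003A04, both at -0.497. In Myt01-013E05 the stage 3 arrays read -0.46, -0.78, -0.46 and -0.42, so that here replicate 4 did not stand apart. In Myt01-003A04 they read -0.52, -1.02, -0.60 and 0.13, and replicate 4 was again the highest. At the stage 1 limit the highest values inside were 0.54 for Myt01-009E02 and 0.37 for Myt01-011C09, the latter among the brighter clones with a female signal of 8.89 to 11.70 on the stage 3 arrays.

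At stage 1 the clones lay close to the level of all clones. The median log2 ratio over the 115 was 0.01, -0.19, 0.04 and -0.09 on replicates 1 to 4, and for 111 clones the stage mean lay between -0.5 and 0.5. The lower arrays were replicates 2 and 4, on which the female carried Cy3. The SD between arrays had a median of 0.27, against 0.25 over all clones. The stage 1 ratio was used by the rule and was not tested.

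The brightest clone had large ratios at every stage. Myt01-005F09 gave stage 1 ratios of -1.82, -0.98, -2.39 and -0.61, stage 2 ratios of 0.98, 2.62, 1.88 and 1.44, and stage 3 ratios of -1.60, -2.68, -1.10 and 0.25. Females were thus higher on all stage 1 arrays and males on all stage 2 arrays, with an adjusted p of 0.175 in limma at stage 2. Myt01-005F09 had SDs of 0.80, 0.70, 1.22 and 2.59 at stages 1 to 4, which all entered the stage 2 standard error of 0.63. Its female signal ran from 10.48 to 11.20 on the stage 1 arrays, from 8.55 to 9.55 on those of stage 2 and from 9.93 to 12.12 on those of stage 3. With the dyes as labelled, the stage 2 females were thus below those of both other stages without overlap. With the sign of stage 2 turned they would be the channel that read 10.53, 12.12, 10.43 and 10.28, which overlaps both. At stage 4 its ratios were 1.84 and 1.72 on replicates 1 and 3 and -2.73 and -2.67 on replicates 2 and 4. The second brightest, Myt01-015C02, had stage 2 ratios of only -0.47 to 0.31. Myt01-008E09, named after its values were seen, had the same order of signs as Myt01-005F09, with stage means of -0.76, 1.20 and -0.69 at stages 1, 2 and 3.

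The stage 2 arrays took no part in the choice of the clones and could be tested, but the fit shared 1 estimate of spread over all stages. The wide spread of these clones at stages 3 and 4 thus entered the stage 2 test. Its median SD was 0.60 and 0.91 there, against 0.20 and 0.19 over all clones. None of the 115 clones was called higher or lower in males by limma (p adjusted over all clones by Benjamini-Hochberg, threshold 0.05), whereas 0.885% of all clones were called higher in males and 0.781% lower. At an unadjusted p under 0.05, 9 of the 115 clones were higher in males and 0 lower, beside 9.69% and 8.49% of all clones. The median stage 2 ratio was 0.07 over the clones and 0.04 over all clones. The share of 9 in 115 clones is 7.83%, but it cannot be set directly against the 9.69%, because the shared spread was wider for these clones. With stage 2 fitted alone, 16 of the 115 passed the unadjusted p in limma, both directions together, a count not made over all clones. After adjustment that fit called 0 of the 115 and 0 of all clones.

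The stage 2 ratios of these clones went with the dye. Their median was -0.10 and -0.11 on replicates 1 and 2, with the female in Cy3, and 0.31 and 0.13 on replicates 3 and 4, with the female in Cy5. Of the 115 clones, 45 were below 0 on both arrays of the first orientation and above 0 on both of the second, and 3 showed the opposite. Among all clones these patterns were held by 12.7% and 10.3%. At stage 1 the same pattern held for 25 clones and its opposite for 4, beside 8.70% and 6.46% of all clones. The part of the dye in these ratios was not tested. In a fit with a random block for arrays of 1 stage that share a dye orientation, again none of the 115 clones was called at stage 2.

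The smallest stage 2 p among clones higher in males belonged to Myt01-003G12. Its stage 2 ratios were -0.45, 0.38, 2.50 and 2.78, a mean of 1.30 with a standard error of 0.42 and an adjusted p of 0.134 in limma. The male signal was 10.17 and 11.18 on replicates 3 and 4, against 8.67 and 8.35 on replicates 1 and 2, so that the difference lay on the arrays with the female in Cy5. Without stage 2 replicate 1 it was called, at 1.88 and an adjusted p of 0.023. The lowest p on the other side was that of Myt01-006G01, at -0.44 and an adjusted p of 0.534. A stage 2 mean above 1 was found in 5 clones, and 3 of them, Myt01-002B08, Myt01-003G11 and Myt01-003G12, were high on replicates 3 and 4. Myt01-003G11, which like Myt01-002B08 was named after its values were seen, had 3.70 and 2.76 there and -1.19 and -0.38 on replicates 1 and 2.

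At stage 4, the spawning stage, the arrays were far apart over these clones. The median log2 ratio was 0.26 on replicate 1, 0.18 on replicate 3 and -1.42 on the averaged replicate (-1.42 and -1.38 on its 2 arrays). All 115 clones were below 0 on the averaged replicate, 112 below -0.5 and 82 below -1. On replicates 1 and 3, 32 and 29 were below 0, beside 54.2% and 50.8% of all clones. Of all clones, 48.6% were below 0 on the averaged replicate and 12.6% at -0.5 or lower. Of the 100 clones of the array at -1 or lower on it, 82 were among the 115.

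The averaged replicate lay below the stage 3 mean for 109 of the 115 clones. This mean includes stage 3 replicate 4, whose median ratio over the clones was 0.01, so that it lies nearer to 0 than replicates 1 to 3. The medians on stage 3 replicates 1 to 3 were -1.04, -1.17 and -0.90, against -1.42 on the averaged replicate. No count of clones was made against replicates 1 to 3 alone. The exceptions to a ratio below -0.5 on the averaged replicate were Myt01-002B08, Myt01-006C04 and Myt01-008F05, named after their values were seen. Only 18 clones were below 0 on all 3 stage 4 replicates, beside 13.9% of all clones. Above 0 on both replicates 1 and 3 were 72 clones, a count not made over all clones.

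No clone of the 115 passed the test for a sex difference at stage 4 in limma after adjustment, in either direction, and of all clones 0% were called higher and 0% lower. At an unadjusted p under 0.05, 2 of the 115 were lower in males and 0 higher, beside 1.93% and 2.19% of all clones. The median stage 4 ratio was -0.29 over the clones (n = 3 replicates) and became 0.17 without the averaged replicate. With it 111 clones had a mean below 0, beside 58.6% of all clones, and without it 29. The SD between the 3 replicates had a median of 0.91, against 0.19 over all clones, so that the difference was smaller than the spread between replicates.

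The smallest stage 4 p was that of Myt01-019A06. Its ratios were -0.36 and -0.16 on replicates 1 and 3 and -1.33 and -1.31 on the averaged arrays, a mean of -0.61 with a standard error of 0.22 and an adjusted p of 0.814. All of them lay below 0, but the averaged replicate lay apart. In Myt01-003G12 the 4 stage 4 arrays read -0.96, -0.64, -0.62 and -0.69, close together, unlike the other 5 clones plotted by replicate. On the side of males, Myt01-013E05 had the smallest p, with 0.60 and 0.63 on replicates 1 and 3 and -0.90 and -0.59 on the averaged arrays, a mean of 0.16 with an adjusted p of 0.9997.

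The change of the ratio from stage 2 to stage 4 was called for none of the 115 clones, beside 0.833% of all clones called upward and 0.156% downward in limma after adjustment. The change was downward for 111 clones, beside 63.1% of all clones. At an unadjusted p under 0.05 in limma, 12 passed downward and 0 upward, beside 6.41% of all clones in each direction. The median change was -0.36 over the 115 clones against -0.08 over all clones. This median rested on the averaged replicate and on the stage 2 direction: it was 0.06 without the averaged replicate, and with the sign of stage 2 turned it was -0.22 and none of the 115 passed the unadjusted p. Without stage 4 replicate 1 it was -0.61 and without stage 4 replicate 3 it was -0.57. The smallest p belonged to Myt01-004A11, with stage 2 ratios of 0.30, 0.73, 1.18 and 0.32 and stage 4 ratios of -0.84 and -0.08 on replicates 1 and 3 and -1.51 and -1.47 on the averaged arrays. Its groups did not overlap. The change was -1.44 with a standard error of 0.42 and an adjusted p of 0.126, and it was called with all 16 arrays kept separate (-1.61, adjusted p of 0.034) and without stage 3 replicate 4 (adjusted p of 0.049). It was -1.09 with an adjusted p of 0.352 without the averaged replicate, and -0.17 with an adjusted p of 0.989 with the sign of stage 2 turned.

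In females alone, 6 of the 115 clones (5.22%) were called higher at stage 4 than at stage 2 and none lower, by limma on the separate channels with adjustment over all clones. Of all clones, 1.88% were called higher and 4.27% lower. With dim clones left out, 6 of 91 were called higher, beside 48 higher and 87 lower of 858 clones, so that the shares lay closer together. At an unadjusted p under 0.05 there were 23 higher and 1 lower among the 115, and 8.54% and 7.92% among all clones. The median change in females was 0.58 over the 115 clones and 0.05 over all clones. Without the averaged replicate the median change was 0.35, 1 clone was called higher and 1 lower (Myt01-013C10, at -1.03 with an adjusted p of 0.036), beside 59 higher and 67 lower of the 1920, and of the 6 only Myt01-019A06 was still called. The share of the 115 clones called higher was then below that of all clones. Leaving out stage 2 replicate 1 or stage 4 replicate 1 gave 3 calls, all higher, beside 16 and 17 higher of all clones. Leaving out stage 2 replicate 2 gave 2 beside 21, and turning the sign of stage 2 gave 1 beside 10.

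Myt01-019A06 had the smallest p. Its female signal was 7.16, 7.39, 7.04 and 7.63 on the stage 2 arrays and 8.67, 8.88, 8.37 and 8.89 on the stage 4 arrays. The groups were apart by more than their spread, and replicates 1 and 3 lay close to the averaged arrays. The change was 1.34 with a standard error of 0.27, a 2.52-fold increase, with an adjusted p of 0.0021 in limma, and it was 1.21 with an adjusted p of 0.0078 without the averaged replicate. In males the same clone gave 0.51 with an adjusted p of 0.541.

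With the dyes as labelled, the 2 called clones with the greatest change were Myt01-002C05 and Myt01-002B04. In Myt01-002C05 the female signal was 7.33, 7.27, 6.94 and 6.82 at stage 2 and 8.14, 9.76, 8.88 and 9.89 at stage 4. In Myt01-002B04 it was 6.87, 7.12, 6.39 and 6.50 at stage 2 and 7.75, 8.89, 8.18 and 9.02 at stage 4. Neither clone overlapped between the stages, and in both the averaged arrays (replicates 2 and 4) were the highest. The changes were 1.86 ± 0.52 and 1.57 ± 0.47 (± standard error), with adjusted p of 0.031 and 0.045. Without the averaged replicate they were 1.42 and 1.24, with adjusted p of 0.149 and 0.217. Both calls were also lost without any 1 of the stage 2 arrays or stage 4 replicate 3, and that of Myt01-002B04 also without stage 1 replicate 2, stage 3 replicate 2 or 3, or stage 4 replicate 1, with adjusted p of 0.051 to 0.126 in these limma fits. Without background correction both were lost too (adjusted p of 0.058 for Myt01-002C05 in limma). The call of Myt01-002B04 was also lost with plain background subtraction, median centring in place of loess, and loess per print-tip block. In all, Myt01-002B04 lost its call under 15 of 25 alternatives and Myt01-002C05 under 8. With the sign of stage 2 turned the changes were 0.91 and 1.44, in the opposite order, with adjusted p of 0.484 and 0.116.

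The other called clones were Myt01-004A11 (1.47, adjusted p 0.014), Myt01-002A04 (1.22, adjusted p 0.014) and Myt01-019A05 (1.12, adjusted p 0.030), given here because they complete the count. Without the averaged replicate their adjusted p rose to between 0.081 and 0.109. Female signal of Myt01-002A04 and Myt01-019A05 was above background on only 2 of the 4 stage 2 arrays each. Myt01-019A05 and Myt01-019A06 sit in neighbouring wells of 1 plate. By mean signal the 6 clones lay between the percentiles 63.8 and 87.0 of the array, and 4 of them come from plates 2 and 4.

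**Figure D4:**
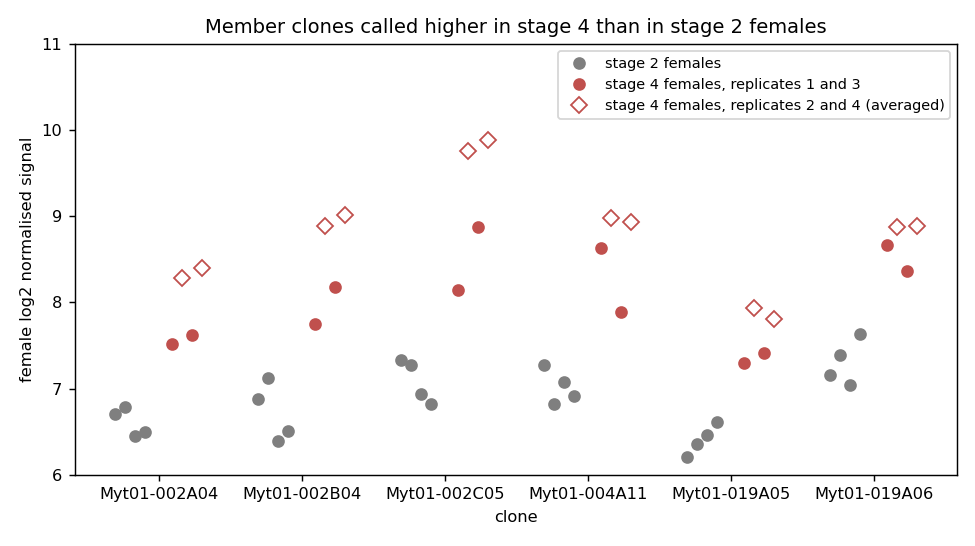
Female log2 normalised signal of the 6 clones called higher at stage 4 than at stage 2, by clone. Grey points are the 4 stage 2 arrays, filled red points stage 4 replicates 1 and 3, and open diamonds the stage 4 arrays averaged into 1 replicate. In every clone all stage 4 symbols lie above the stage 2 points, and the diamonds are highest.

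In males, none of the 115 clones was called between stages 4 and 2 in either direction, beside 0.104% of all clones called higher and 0.312% lower by limma after adjustment. At an unadjusted p under 0.05 there were 3 lower (2.61%) and 0 higher among the 115, and 6.35% and 3.91% among all clones. The median change in males was 0.17 over the 115 clones and -0.02 over all clones. It was 0.47 without the averaged replicate, where none of the 115 was called, beside 1 higher and 0 lower of 1920 clones. The median change was 0.00014 without stage 4 replicate 1 and 0.03 without stage 4 replicate 3. Myt01-013C10 had the smallest p in males, with -0.81 and an adjusted p of 0.259, and its change in females was of like size, -0.78 with an adjusted p of 0.105. On the other side, Myt01-002H05 changed by 0.96 with an adjusted p of 0.496, and its male signal at stage 4 was 9.77 and 9.57 on replicates 1 and 3 but 7.90 and 7.87 on the averaged arrays.

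The clones were unevenly spread over brightness and over the plates of the clone collection, which the rule did not use directly. Ranked by mean signal over all arrays and both sexes, they lay between the percentiles 16.2 and 99.0 of the array with a median of 80.6. Above the percentile 75 of the array lay 68 of the 115, and below the percentile 50 lay 15. Among stage 3 replicates 1 to 3, brighter clones tended to be lowest on replicate 2. The 51 clones lowest there had a median percentile of 88.2, and the 55 clones highest there 62.3.

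Clone names give the plate, and 20 plates of 96 clones supplied the array. Plates 1 to 4 held 65 of the 115 clones, although they supplied 20% of the clones, so that 16.9% of the clones on these plates and 3.26% of the others were in the list. Plate 3 held the most, 23, and plate 20 held 0. Above the percentile 75 of signal the shares were 30% (33 of 110) and 9.46% (35 of 370), so that the shares also differed among bright clones. Plates 19 and 20 were dim, with a median percentile of 6.93 and 3.62. The clones were spread over all 16 print-tip blocks, with 3 to 11 in each, and both spots of every clone lay in the same block.

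**Figure D5:**
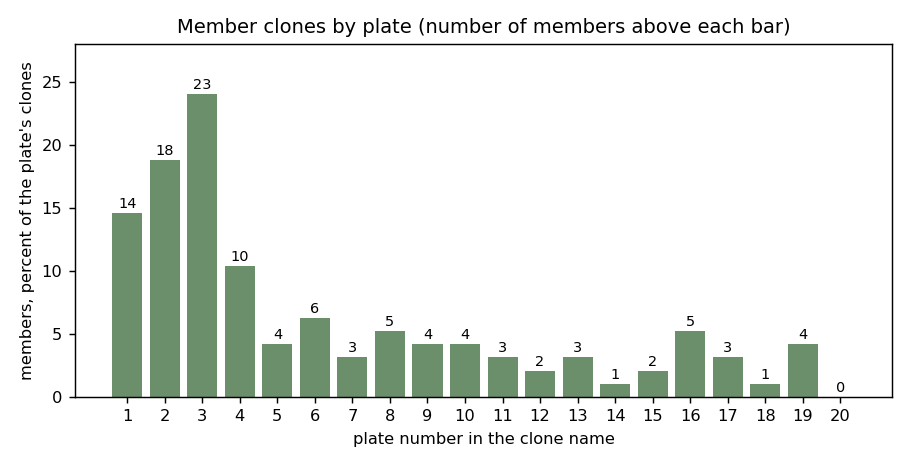
Percent of the 96 clones of each plate that belong to the 115 clones, with their number above each bar. Plates 1 to 4 hold 14, 18, 23 and 10, and no other plate holds more than 6.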

How the data were processed

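The members, the limits and the tests were chosen with earlier results of these data known. The authors scanned the arrays and measured spots with GenePix, and the deposited files hold linear spot intensity (635 and 532 nm) with local background, not normalised. The deposited value table holds log2 ratios made by the authors, which matched female over male on the scanner values (r = 0.930 to 1.00). Their table was used to choose the clones. All other values were recomputed from the intensities with limma 3.58.1 in R 4.3.3: normexp background correction (offset 50), loess within arrays with 608 blank and 112 alignment spots at weight 0, both spots averaged, sign set by the labelled dyes. The direction at stage 2 follows the labels only: over all clones its mean ratios correlated at -0.589 with those of stage 1, so that stage 2 is also given with the sign turned. Ratios were fitted with 1 coefficient per stage (15 replicates, 11 residual degrees of freedom). Signals of each sex came from Aquantile normalisation and a separate-channel fit (statmod 1.5.0). All tests were two-sided, and p was adjusted over 1920 clones (Benjamini-Hochberg). A clone was above background in a channel where at least 1 of its 2 spots exceeded local background by over 2 SD. The number of arrays limits the precision.

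Clones named were the 2 with the lowest stage 3 value, the 2 lowest with all 4 arrays below 0, those on either side of each limit, the 2 brightest, and in each test at most 2 called clones per direction or, with none called, that with the smallest p. Other clones are marked as named after their values were seen. Replicate numbers did not pair the arrays. Lists of marker genes and gene groups could not be applied, because clones were not paired with genes. The fits were tested on simulated data with the same SD per clone at every stage, unlike these clones, whose spread differed between stages. The alternatives were other background corrections and normalisations, the deposited table, separate replicates, blocks, a filter on dim clones, a turned stage 2, single stages, and each array left out. The p-values measure the spread between single animals and slides, which cannot be told apart.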

Additional observations from a re-analysis of the deposited data

Results flagged for a closer look

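Among 66 sets of 4 arrays examined (the named clones and the median over the 115 clones, at stages 1, 2 and 3), 6 held an array far from the other 3 by Dixon's criterion, and chance gives about 1 in 20. Stage 4 has 3 replicates and was not examined.

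At stage 3, replicate 4 was the array apart in 3 clones. Myt01-003D02 read -0.10 there, against -1.59 to -1.43 on the other arrays. Myt01-006F07, the clone removed by the stage 1 limit, read 0.73, against -1.82 to -1.40. Myt01-009E02 read -0.24, against -0.73 to -0.69. In Myt01-013E05 it was replicate 2 that lay apart, at -0.78 against -0.46 to -0.42.

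Myt01-009E02 also held an array apart at the other stages. At stage 1 replicate 2 read 1.67, against 0.05 to 0.28, so that the clone's position next to the stage 1 limit came from 1 array. At stage 2 replicate 1 read 0.59, against -0.28 to -0.15.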

How the results depend on the processing

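Of 533 recomputed values, 489 were classed as unchanged, by limits that differed between kinds of result. A count had to stay within a set fold, and a median of ratios within the SD between replicate medians. A single clone had to keep its direction and side of the threshold. Many values could not change, because a stage median does not depend on arrays of other stages, so that the total is no measure of robustness. The counts at stage 4 and in males stayed at 0 under every alternative run. All medians of ratios moved by less than the SD between replicate medians, which was wide at stage 4 (0.95). At stage 3 they ran from -1.05 (plain background subtraction) to -0.46 (no background correction), and at stage 1 from -0.13 to -0.02. They ran from -0.57 to 0.17 at stage 4 and from -0.07 to 0.12 at stage 2, so that the sign changed at both stages.
The count of the 115 clones called in females between stages 4 and 2 was 6 as reported, all higher, beside 36 higher of all clones. It was 2 beside 23 without background correction and 11 beside 36 with plain subtraction. With all 16 arrays separate it was 10 beside 56, and with stage 2 turned 1 beside 10. Separate arrays count stage 4 replicates 2 and 4 as 2 samples, although they were too alike for that. Without the averaged stage 4 replicate, an alternative chosen after seeing the data, 1 was higher and 1 lower, beside 59 and 67. Leaving out single arrays gave 2 beside 21 (without stage 2 replicate 2) to 9 beside 53 (without stage 3 replicate 4). It gave 3 without stage 2 replicate 1 or stage 4 replicate 1, beside 16 and 17. The count for the change of the ratio between stages 4 and 2 was 2 with all 16 arrays separate, both lower, beside 15 lower of all clones. With single arrays left out it was 0 to 1, with the 1 lower beside 3 lower of all clones (without stage 3 replicate 4). The count at stage 2 was 0 to 1, with the 1 higher beside 32 higher of all clones (without stage 2 replicate 1). The causes were not tested.
With the replicate number as a block and all 16 arrays separate, 9 clones were called higher in females, beside 50 of all clones, and 0 in each other comparison. Same-numbered arrays of different stages correlated at -0.591 to 0.406 over 24 pairs, and 4 of 16 arrays correlated best with their own number, so that the samples share only a number.
With stage 2 turned, Myt01-003G12 became -1.30 and Myt01-006G01 0.44. Myt01-013E05 at stage 4 turned to -0.0663 with all 16 arrays separate, with or without the block, and ran from -0.0727 (without stage 4 replicate 3) to 0.211 (without stage 4 replicate 2) with single arrays left out, also below 0 without stage 4 replicate 1 (-0.0599). Of the 115 clones, 24 dim clones were not tested under the filter on dim clones. Depth on arrays is signal over background: for 19 clones the stage 3 male level has only a bound.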
